A study of Mus musculus with 19 samples.

Results

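The expression of 8 genes around FOXO transcription factors and the exit of T cells from the thymus was examined in sorted mouse thymocytes labelled as lacking Raptor, set against WT cells. The genes were Foxo1, Foxo3, Foxp1, Klf2, S1pr1, Sesn3, Btg1 and Pik3ip1. They were chosen by name from a table of 22180 genes, with earlier results of these data known. Counts of called genes among the 8 are therefore a description and no test of the set. Each gene was read from its probe set with the highest mean over all 19 arrays. All 8 were measured, Foxo1 by 2 probe sets and the others by 1 each.

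The Raptorfl/fl samples came from C57BL/6 mice in which a CD2-cre transgene was combined with a loxP-flanked Rptor gene. Their genotype is labelled Rptor-/-. The WT samples were C57BL/6 as well, and the labels do not say whether they carried the Cre. CD2-cre acts in lymphocytes, so thymic stroma and other cells of the animal keep the gene. Each population was sorted from thymus. Immature single positive (ISP) cells were CD4-, CD8+ and TCRβ-, with 3 Raptorfl/fl and 4 WT arrays. DN3a cells were CD4-, CD8-, negative for both T cell receptors, CD25hi, CD44- and CD28-, with 3 Raptorfl/fl and 3 WT arrays. γδ T cells, with 3 Raptorfl/fl and 3 WT arrays, were sorted without CD4 or CD8 and without TCRβ, Gr1 or NK1.1, and the gate as described names no positive TCRγδ step. Animal age, pooling and whether replicates were separate animals are not stated in the labels, so p-values measure only how far these samples spread, which may be technical.

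FOXO factors switch on genes of quiescence, survival and trafficking. Signalling through PI3K, mTORC2 and AKT phosphorylates them and moves them out of the nucleus, so much of their control lies beyond what an RNA level shows. In T cells Foxo1 is known to act upstream of Klf2, and Klf2 upstream of S1pr1, the receptor for sphingosine 1-phosphate that lets mature thymocytes leave for the blood. Raptor is the subunit that defines mTORC1, the kinase complex that sestrins restrain.

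All values below are log2 expression, so a difference of 1 is a doubling, and levels are compared within a gene only. The 7 ISP arrays had medians of 3.80 to 3.88 and the 12 DN3a and γδ arrays medians of 6.03 to 6.13, so ISP levels were never set against the other populations. A gene is called changed at an adjusted p under 0.05 from limma, fitted to all genes. The mean of Rptor itself was lower in Raptorfl/fl cells in all 3 populations: it was 6.20 ± 0.14 against 6.44 ± 0.07 in WT ISP cells, 9.65 ± 0.10 against 10.23 ± 0.09 in WT DN3a cells and 9.47 ± 0.06 against 9.77 ± 0.03 in WT γδ T cells (SD). The groups overlapped on that gene in ISP cells. The sources used here do not give the part of Rptor that its probe set covers. The probe set may thus lie outside the deleted segment, and how complete the deletion was in these samples was not tested. Markers of the sort gave a mixed picture. Here and below, a gene is placed above or below the array median by the rank of its group mean among all 22180 genes. The medians given above are over all probe sets. All 7 measured γδ T cell markers were higher in WT γδ than in WT DN3a cells, and 6 of 7 DN3a markers were lower. Of 4 ISP markers Cd8a was below the array median in every DN3a and γδ group, but the other 3, Cd8b1 among them, were above it in every group, and Cd8b1 was higher in WT γδ than in WT DN3a cells although both gates leave out CD8.

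RefSeq start regions were available for 7 of the 8 genes, in 9 windows of 300 bases, from 250 before to 50 after an annotated start. They were searched on both strands for GTAAACA, the core that FOXO and FOXP factors bind, which reads TGTTTAC on the other strand, and for CACCC, the core bound by KLF factors, which reads GGGTG on the other strand. The FOXO core was in 1 of the 9 windows, that of Btg1, and in 3.65% of 32851 windows of this length over all genes. The CACCC core was in 5 of the 9 windows, against 57.5% of all windows. The windows of 3 genes that changed in ISP cells are shown, each on the plus strand of GRCm38.p6 and with matches in capitals: Btg1 because it holds the only FOXO core, Klf2 and Sesn3 because they were the genes that fell. The Btg1 window is chr10:96616751-96617050, the Klf2 window chr8:72318812-72319111 and the Sesn3 window chr9:14276051-14276350. A match is a run of letters, not a measured binding site.
Btg1: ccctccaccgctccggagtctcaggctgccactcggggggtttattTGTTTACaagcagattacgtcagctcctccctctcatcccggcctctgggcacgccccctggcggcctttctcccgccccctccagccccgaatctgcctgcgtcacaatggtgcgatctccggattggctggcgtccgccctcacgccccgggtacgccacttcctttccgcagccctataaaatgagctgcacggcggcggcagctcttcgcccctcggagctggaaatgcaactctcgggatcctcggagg
Klf2: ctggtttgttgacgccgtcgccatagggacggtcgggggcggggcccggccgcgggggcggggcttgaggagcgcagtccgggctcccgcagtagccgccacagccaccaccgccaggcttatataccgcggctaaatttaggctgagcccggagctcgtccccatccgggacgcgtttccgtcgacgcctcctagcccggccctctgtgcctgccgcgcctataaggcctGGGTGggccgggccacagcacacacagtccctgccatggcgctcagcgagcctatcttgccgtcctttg
Sesn3: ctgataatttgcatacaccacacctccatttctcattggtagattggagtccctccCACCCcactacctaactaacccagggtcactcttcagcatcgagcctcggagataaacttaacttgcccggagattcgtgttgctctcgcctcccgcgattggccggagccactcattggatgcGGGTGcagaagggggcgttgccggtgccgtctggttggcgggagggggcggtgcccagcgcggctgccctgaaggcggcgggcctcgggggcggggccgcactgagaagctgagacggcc

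These genes changed in opposite directions between Raptorfl/fl and WT in ISP cells, the dividing CD8+ stage before the double positive stage. Foxo1, Foxo3 and Btg1 rose, Klf2 and Sesn3 fell, and Foxp1, S1pr1 and Pik3ip1 did not pass the test. That is 5 of 8 genes called, where 12.4% of all genes were called, 5.87% higher and 6.57% lower. The median difference of the 8 genes was 0.04, against -0.00 over all genes.

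Foxo1, the main FOXO factor of T cells, read 7.10, 6.93 and 7.05 on the 3 Raptorfl/fl ISP arrays, against 6.16, 5.91, 6.06 and 6.21 on the 4 WT arrays. Every Raptorfl/fl array lay above every WT array. The means were 7.03 ± 0.09 and 6.08 ± 0.13 (SD), a 1.92-fold difference of 0.94 (SE 0.10, 95% interval 0.74 to 1.15, limma adjusted p = 3.07e-06). The second Foxo1 probe set gave a smaller difference of 0.55, with 6.10 ± 0.24 in Raptorfl/fl and 5.55 ± 0.16 in WT cells, and the mean of both gave 0.75 (limma adjusted p = 1.1e-05).

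Foxo3, a second FOXO factor with overlapping targets, read 5.38, 5.54 and 5.40 in Raptorfl/fl ISP cells, against 5.28, 4.93, 5.17 and 5.05 in WT ISP cells. The groups did not overlap, but the lowest Raptorfl/fl array and the highest WT array were close. The difference was 0.33 (SE 0.09, limma adjusted p = 0.0133). It no longer passed with the ISP arrays fitted alone (adjusted p = 0.0899), with all arrays quantile normalized together (0.23, adjusted p = 0.164), with the replicate number as a block (0.31, adjusted p = 0.0561) or without the second Raptorfl/fl array (0.28, adjusted p = 0.0853).

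Klf2, the zinc finger factor that supports quiescence and thymic exit, moved the other way from Foxo1. It read 5.80, 6.11 and 5.68 in Raptorfl/fl ISP cells, against 7.59, 6.63, 7.74 and 6.54 in WT ISP cells. The WT arrays formed a high pair and a lower pair, and all 4 lay above the Raptorfl/fl arrays. The means were 5.86 ± 0.22 and 7.13 ± 0.63 (SD), so Klf2 fell 2.40-fold, by 1.26 (SE 0.23, limma adjusted p = 0.000792). With the ISP arrays fitted alone, where the spread is estimated from these 7 arrays, the same difference had an adjusted p of 0.0769.

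**Figure D1:**
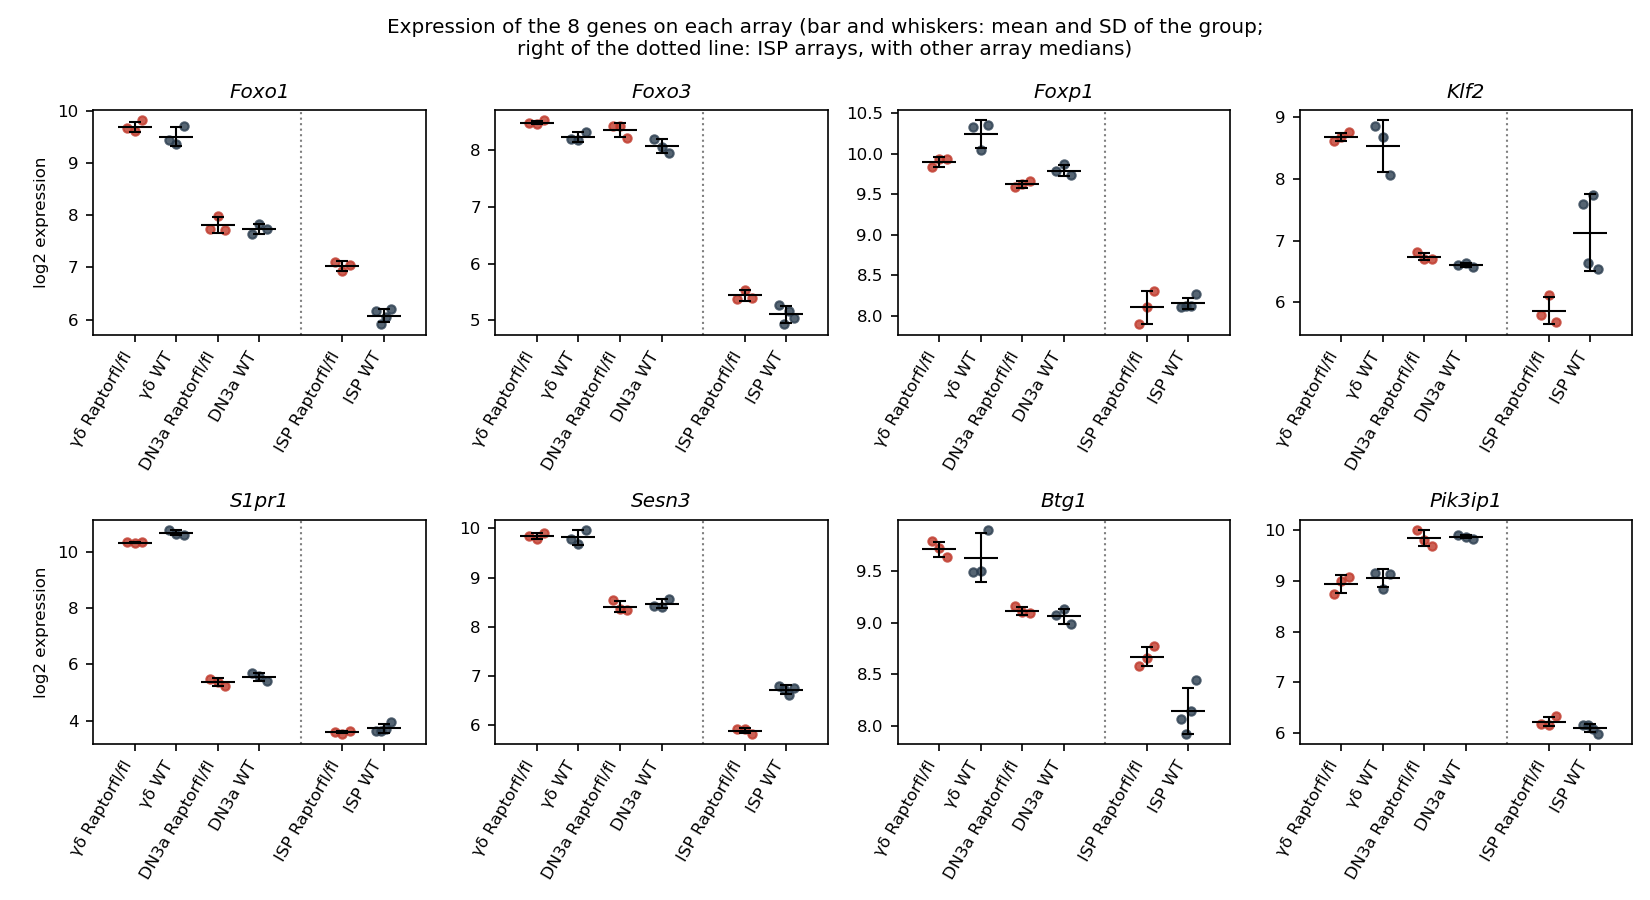
Log2 expression of each gene on every array, 1 panel per gene, with points for arrays, a bar for the group mean and whiskers for the SD; ISP arrays stand right of the dotted line because their array medians differ from those of the other arrays, and their height is not compared with the rest. In ISP cells Foxo1 lies at 6.93 or more in Raptorfl/fl and at 6.21 or less in WT, and the 4 WT arrays for Klf2 are spread from 6.54 to 7.74.

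The WT spread of Klf2 ran alongside that of immediate early and heat shock genes, which were looked at after the Klf2 values had been seen. Jun, an AP-1 subunit that is induced within minutes of stimulation, read 5.14, 4.56 and 5.49 in Raptorfl/fl ISP cells, against 8.80, 7.73, 9.12 and 7.60 in WT ISP cells. The order of the 4 WT arrays was the same for Jun as for Klf2. Fos, the partner of Jun, averaged 4.80 ± 0.23 in Raptorfl/fl and 7.10 ± 0.57 in WT cells (SD). Hspa1a, a heat-inducible chaperone, averaged 4.28 ± 0.72 in Raptorfl/fl and 9.02 ± 1.20 in WT cells (SD). All 3 genes fell, with differences of -3.25 for Jun, -2.30 for Fos and -4.74 for Hspa1a (limma adjusted p = 4.47e-07, 4.93e-07 and 1.43e-05). In DN3a and γδ T cells none of the 3 passed, and their means stood higher in Raptorfl/fl: Hspa1a by 2.07 and 1.49 (unadjusted p = 0.00347 and 0.027, limma adjusted p = 0.148 and 0.23), Jun by 0.50 and 0.49, and Fos by 0.19 and 0.14. Their part in the Klf2 differences was not tested. Among the Raptorfl/fl arrays the order was not shared: the second array was highest for Klf2 and lowest for Jun, Fos and Hspa1a.

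**Figure D2:**
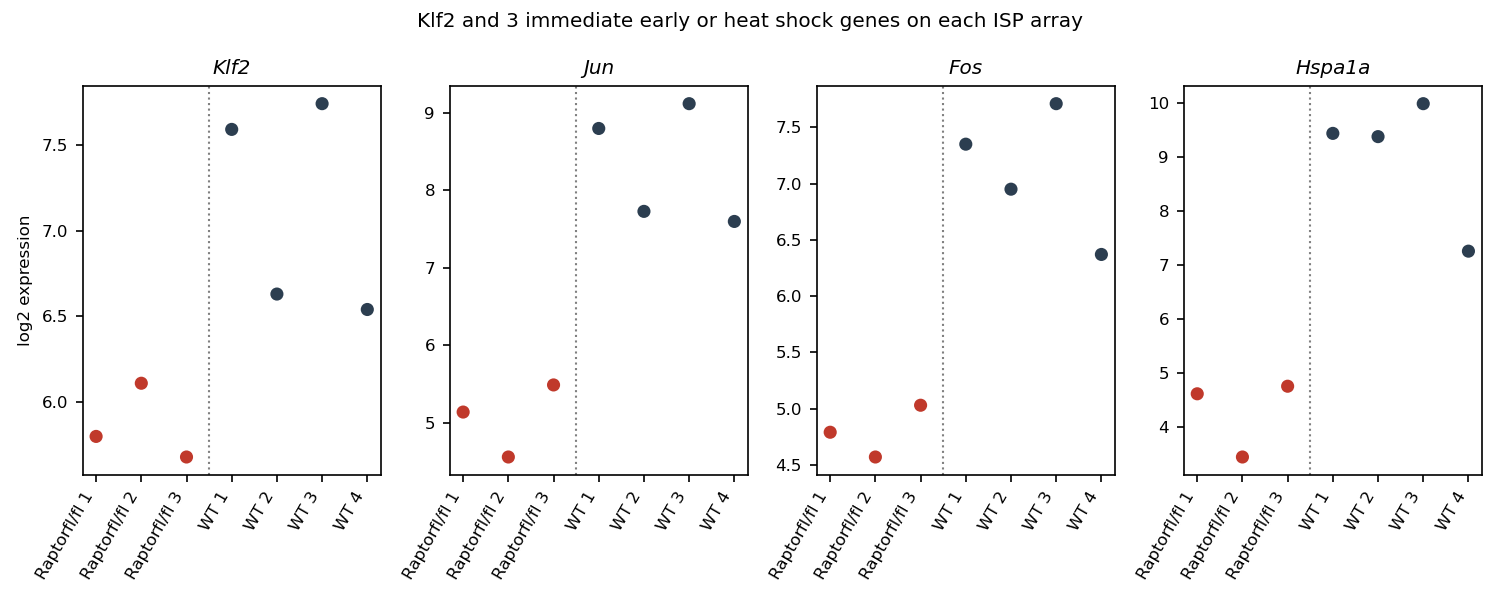
Log2 expression of Klf2, Jun, Fos and Hspa1a on each ISP array, with Raptorfl/fl arrays left of the dotted line and WT arrays right of it. Klf2 and Jun share the order of the 4 WT arrays, with the third highest at 7.74 and 9.12 and the fourth lowest at 6.54 and 7.60, while the second Raptorfl/fl array is highest for Klf2 at 6.11 and lowest for Jun at 4.56.

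Sesn3, the sestrin that FOXO factors are known to induce and that restrains mTORC1, read 5.92, 5.91 and 5.82 in Raptorfl/fl ISP cells, against 6.80, 6.74, 6.60 and 6.76 in WT ISP cells. Both groups were tight and far apart. Sesn3 fell 1.79-fold, by 0.84 (SE 0.08, limma adjusted p = 1.33e-06), with means of 5.88 ± 0.05 and 6.72 ± 0.09 (SD). Foxo1 and Sesn3 passed with the ISP arrays fitted alone (limma adjusted p = 0.0046 and 0.00351).

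Btg1, an antiproliferative protein that promotes the shortening of poly(A) tails and is linked to T cell quiescence in mice, read 8.58, 8.66 and 8.77 in Raptorfl/fl ISP cells, against 8.06, 7.92, 8.14 and 8.44 in WT ISP cells. The lowest Raptorfl/fl array lay just above the highest WT array. The difference was 0.53 (SE 0.11, limma adjusted p = 0.00231), and its adjusted p was 0.0553 with the ISP arrays fitted alone.

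The remaining 3 genes overlapped between genotypes in ISP cells. Foxp1, a forkhead factor that holds naive T cells in quiescence, averaged 8.10 ± 0.20 in Raptorfl/fl and 8.15 ± 0.07 in WT cells (SD). S1pr1 averaged 3.59 ± 0.04 in Raptorfl/fl and 3.74 ± 0.16 in WT cells, below the median of these arrays in both groups, so a change there would be compressed. Pik3ip1, a membrane protein that dampens PI3K, averaged 6.23 ± 0.09 in Raptorfl/fl and 6.11 ± 0.08 in WT cells. Their limma adjusted p-values were 0.871, 0.428 and 0.551. An exact two-sided permutation test of a single gene cannot go below p = 0.0571 with 3 and 4 arrays, a value that each of the 5 called genes reached.

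The wider pathways moved in both directions in ISP cells. Of 26 measured FOXO target genes, 7 rose and 6 fell, with a list median of -0.06, and 3 rose with the ISP arrays fitted alone. Txnip, which limits glucose uptake, rose by 1.42 (SE 0.11, limma adjusted p = 8.36e-08), Ccng2, an atypical cyclin of resting cells, by 0.81, and Rbl2, a pocket protein that represses cell cycle genes, by 0.64. Il7r, the receptor chain for the survival cytokine IL-7 and a known Foxo1 target, fell by 1.68, with 3.90 ± 0.09 in Raptorfl/fl and 5.58 ± 0.55 in WT cells (limma adjusted p = 4.21e-06). Il7r lay below the array median in Raptorfl/fl cells, so its difference would be compressed. Sod2, a mitochondrial antioxidant enzyme, fell by 0.70 and Cited2, a transcriptional cofactor, by 0.72. Cdkn1b differed by 0.21 without passing the test (limma adjusted p = 0.198). Targets of FOXO factors were thus found on both sides, as Klf2 and Sesn3 stood opposite to Foxo1.

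Of 20 genes on the PI3K, AKT and mTORC2 route to FOXO, 4 rose and 3 fell in ISP cells. Inpp5d, the phosphatase SHIP1 that removes the PI3K product, rose by 0.76, Pik3r5 by 0.43 and Rictor, the mTORC2 subunit, by 0.46. Sgk1, a kinase that also phosphorylates FOXO factors, fell by 0.84 and Pik3cd, the PI3K catalytic subunit of leukocytes, by 0.52. Sgk1 averaged 3.79 ± 0.34 (SD) in Raptorfl/fl cells, below the array median, so its difference would be compressed. Of 21 exit and trafficking genes, 3 rose and 2 fell. Itga4, an integrin chain, fell by 1.20 (SE 0.07, limma adjusted p = 5.13e-09), and its partner chain Itgb7 rose by 0.59. Of these, Rictor and Itgb7 did not pass with the ISP arrays fitted alone, where 2 genes of the PI3K route rose and the trafficking list held 0 genes that rose and 1 that fell.

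Relatives of the 8 genes were mixed as well. Among 16 other Klf genes, 2 rose (Klf3 by 0.57, Klf7 by 0.55) and 2 fell (Klf16 by 0.80, Klf4 by 0.70). Among 12 genes of the BTG/TOB family and the CCR4-NOT deadenylase, 1 rose and 4 fell: Tob1, an antiproliferative relative of Btg1, fell by 0.83 while Btg1 rose. Btg2 differed by -0.37 without passing the test (limma adjusted p = 0.0546). Among 12 sestrin and GATOR genes, 1 rose and 2 fell, and Sesn1 and Sesn2 differed by -0.23 and -0.18 without passing the test (limma adjusted p = 0.166 and 0.583). None of 5 FOXO and FOXP relatives passed: Foxo4 differed by -0.07 and Foxp4 by -0.26 (limma adjusted p = 0.795 and 0.0536), and 1 of the 5 had an unadjusted p under 0.05. Foxp4 was called lower with median centring, quantile normalization, an intensity trend or dim genes left out (limma adjusted p = 0.0244, 0.0408, 0.0404 and 0.0242) and without the third Raptorfl/fl array (0.0198). With the ISP arrays fitted alone the BTG/TOB and CCR4-NOT list held 0 genes that rose and 2 that fell, and the sestrin and GATOR list 0 that rose.

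Markers of other stages and cell types were read on the same ISP arrays. Of 7 DN3a markers, 4 were higher (Dtx1, Ptcra, Notch1 and Il2ra) and 2 lower (Il7r and Hes1) in Raptorfl/fl cells. Their mean level per array was 7.24 to 7.27 in Raptorfl/fl and 6.95 to 7.26 in WT. Of 4 ISP markers 1 was higher (Ptcra) and 1 lower (Cd24a). Of 7 γδ T cell markers 1 was higher (Cd27) and 1 lower (Id3). Of 9 markers of mature αβ T cells, a list that holds Klf2, S1pr1 and Il7r, 2 were higher and 2 lower, with mean levels of 5.52 to 5.71 in Raptorfl/fl and 5.60 to 6.01 in WT, and Cd40lg lay below the array median in both. None of 5 B cell, 7 natural killer cell or 6 dendritic cell markers passed limma's test in ISP cells (0, 1 and 3 had an unadjusted p under 0.05), and 1 of 8 myeloid markers (Cd68) and 1 of 8 stromal markers (Pecam1) did. The part of cell composition in the changes above was not tested, and in sorted bulk RNA fewer expressing cells and less RNA per cell cannot be told apart.

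**Figure D3:**
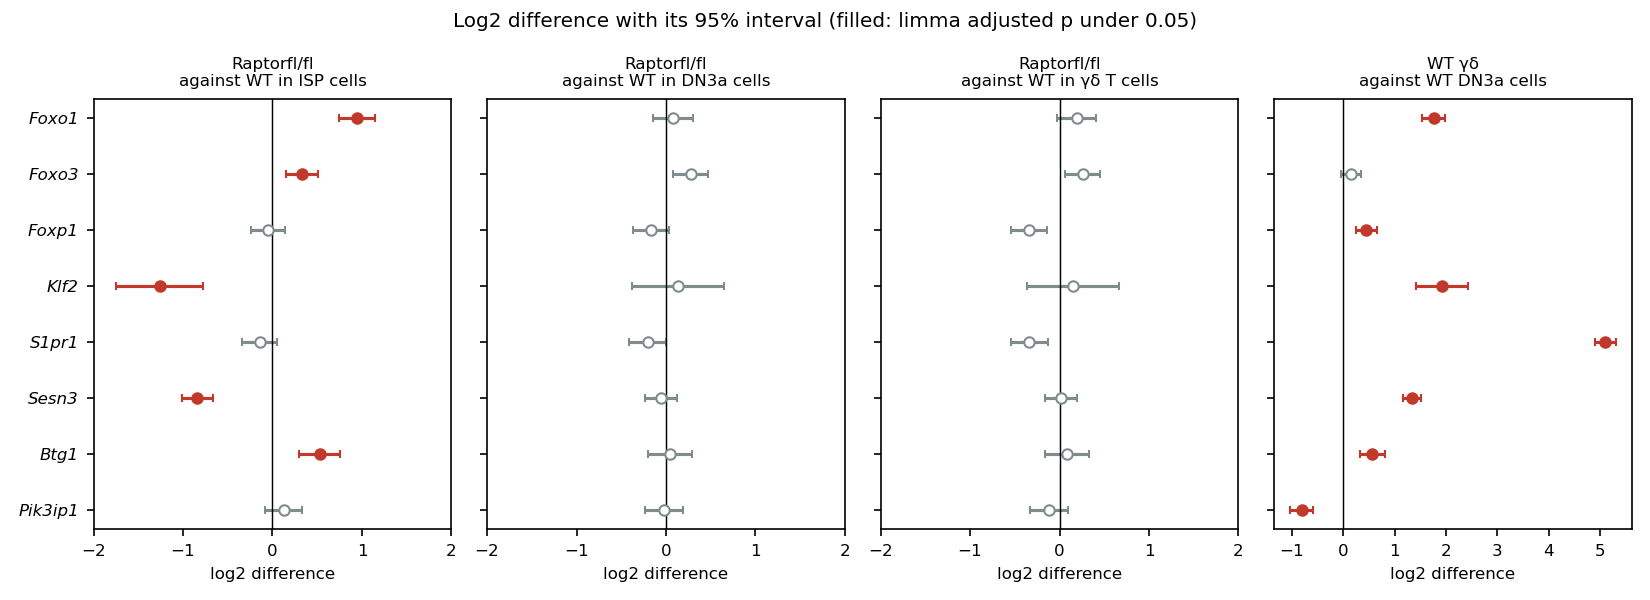
Log2 difference of each gene with its 95% interval in the 4 comparisons, with filled points where the limma adjusted p was under 0.05; the last panel has a wider axis. ISP cells have filled points on both sides of 0, DN3a and γδ T cells have none, and 7 of 8 points are filled between WT γδ and WT DN3a cells, with S1pr1 at 5.10.

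In DN3a cells, the stage at which the TCRβ gene is rearranged, none of the 8 genes passed the test between Raptorfl/fl and WT, where 0.983% of all genes were called, 0.712% higher and 0.271% lower. The largest difference was that of Foxo3, which read 8.42, 8.42 and 8.21 in Raptorfl/fl cells, against 8.20, 8.06 and 7.95 in WT cells. Its groups just missed overlapping, and the difference of 0.28 (SE 0.09) was the only one of the 8 with an unadjusted p under 0.05 (0.00742, limma adjusted p = 0.219). Foxo1 averaged 7.81 ± 0.16 in Raptorfl/fl and 7.74 ± 0.10 in WT DN3a cells (SD), a difference of 0.08 with a 95% interval of -0.14 to 0.30.

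Klf2 in DN3a cells read 6.81, 6.71 and 6.70 in Raptorfl/fl, against 6.61, 6.64 and 6.58 in WT. These groups did not overlap, but the difference of 0.13 had a 95% interval of -0.38 to 0.65, with an SE of 0.25 from the spread shared with the other arrays and of 0.08 with the DN3a arrays fitted alone. Sesn3 averaged 8.41 ± 0.11 in Raptorfl/fl and 8.47 ± 0.09 in WT DN3a cells (SD). Foxp1 read 9.59, 9.63 and 9.66 in Raptorfl/fl, against 9.78, 9.87 and 9.74 in WT, a difference of -0.17 (limma adjusted p = 0.575). The other 3 genes overlapped between genotypes, with differences of -0.20 for S1pr1, 0.05 for Btg1 and -0.02 for Pik3ip1. With 3 arrays a group, an exact permutation test of 1 gene cannot go below p = 0.1.

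Across the wider lists in DN3a cells, 2 genes passed the test, both of trafficking. S1pr2, a sphingosine 1-phosphate receptor that opposes migration, rose by 0.54, with 8.88 ± 0.04 in Raptorfl/fl and 8.34 ± 0.03 in WT cells (SD, limma adjusted p = 0.00016). Itga4 fell by 0.47, as it had fallen in ISP cells (limma adjusted p = 0.00346). No FOXO target, Klf gene, sestrin or GATOR gene, or gene of the PI3K route passed limma's test, though 3 of 26, 5 of 16, 1 of 12 and 3 of 20 had an unadjusted p under 0.05. The replicate block, median centring and quantile normalization each called 1 FOXO target higher. Median centring, quantile normalization and leaving out dim genes each called 1 Klf gene higher. The mean of probe sets called 1 gene of the PI3K route higher. Il7r differed by 0.02. Beside these, 2 of 7 DN3a markers (Dtx1 and Ptcra) were higher in Raptorfl/fl DN3a cells. So were 2 of 7 γδ T cell markers (Maf and Sox13), 1 of 8 myeloid markers (Lyz2) and 1 of 8 stromal markers (Epcam). Maf lay below the array median in both genotypes. The part of such cells in the DN3a differences was not tested.

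In γδ T cells none of the 8 genes passed the test between genotypes either, where 3.05% of all genes were called (1.77% higher, 1.28% lower), but 3 of the 8 had an unadjusted p under 0.05. S1pr1 read 10.35, 10.29 and 10.33 in Raptorfl/fl γδ T cells, against 10.77, 10.63 and 10.59 in WT γδ T cells. Foxp1 read 9.83, 9.94 and 9.93 in Raptorfl/fl, against 10.33, 10.05 and 10.35 in WT. In both genes every Raptorfl/fl array lay below every WT array, by differences of -0.34 each (SE 0.10, limma adjusted p = 0.0683 for S1pr1 and 0.0592 for Foxp1).

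These 2 genes sat at the threshold. S1pr1 passed with the replicate number as a block (limma adjusted p = 0.0191), with all arrays quantile normalized together (limma adjusted p = 0.0235) and with dim genes left out (0.0364), and Foxp1 passed under the last 2 of these (0.0208 and 0.0312), with an intensity trend in the variance (0.0333) and without the second WT array (0.0288). With the γδ arrays fitted alone the adjusted p-values were 0.0953 for S1pr1 and 0.155 for Foxp1.

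Foxo3 was the third, at 8.48, 8.45 and 8.52 in Raptorfl/fl γδ T cells, against 8.20, 8.17 and 8.31 in WT γδ T cells. Its groups did not overlap, and the difference of 0.26 had an unadjusted p of 0.0123 and a limma adjusted p of 0.156. Foxo3 was 1 of the 8 genes to stand higher on every Raptorfl/fl array than on any WT array of its population in all 3 populations, as 0.663% of all genes did, by narrow margins and with mean differences of 0.33 in ISP, 0.28 in DN3a and 0.26 in γδ T cells. Of these the difference in ISP cells passed the test, and the differences between populations are given with the contrasts that follow.

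Klf2 in γδ T cells read 8.61, 8.69 and 8.76 in Raptorfl/fl, against 8.86, 8.68 and 8.06 in WT. The third WT array was the lowest for Klf2, and also among the WT arrays for Jun (9.71) and Hspa1a (6.80); without it the difference of 0.15 became -0.08. Foxo1 averaged 9.69 ± 0.10 in Raptorfl/fl and 9.50 ± 0.18 in WT γδ T cells (SD), Sesn3 9.84 ± 0.06 and 9.82 ± 0.15, Btg1 9.71 ± 0.07 and 9.63 ± 0.24, and Pik3ip1 8.93 ± 0.18 and 9.05 ± 0.18. All 4 overlapped between genotypes, with 95% intervals of the difference of -0.03 to 0.41 for Foxo1, -0.16 to 0.20 for Sesn3, -0.16 to 0.33 for Btg1 and -0.33 to 0.10 for Pik3ip1.

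Few genes of the wider lists passed in γδ T cells. Tnfsf10, the death ligand TRAIL, rose by 0.53 and Sesn1 fell by 0.47, the 2 of 26 FOXO targets that were called (limma adjusted p = 0.00452 and 0.0151). S1pr2 rose by 0.30 and Sgpl1, the lyase that degrades sphingosine 1-phosphate, by 0.37, the 2 of 21 trafficking genes that were called (limma adjusted p = 0.0183 and 0.0226). Castor2, a gene of the sestrin and GATOR list, fell by 0.56 and Klf10 rose by 0.42. Skp2, which targets FOXO1 for degradation, fell by 0.48. With the γδ arrays fitted alone, Sesn1, S1pr2, Sgpl1 and Skp2 no longer passed, and Skp2 (limma adjusted p = 0.0457) was also lost with median centring and in 5 of the 6 fits that left out an array. Foxp3, the factor of regulatory T cells, rose by 0.50 at a limma adjusted p of 0.0353. That call was lost in 5 of the 6 fits that left out an array and with the γδ arrays fitted alone. Foxp3 was dim, at 6.07 ± 0.20 in Raptorfl/fl and 5.57 ± 0.15 in WT γδ T cells (SD). With dim genes left out, 0 of the FOXO and FOXP relatives were called higher. Markers of other cells moved with these genes in γδ T cells. Of 4 ISP markers 3 were lower (Cd8b1, Cd8a and Cd24a), with mean levels of 7.25 to 7.45 in Raptorfl/fl and of 7.90 or more in WT, and Cd8a lay below the array median in both. Of 7 natural killer and innate lymphoid cell markers 2 were higher (Klrd1 and Tbx21) and 2 lower (Klre1 and Gzma), and 1 of 7 DN3a markers (Dtx1) and 1 of 9 mature αβ T cell markers (Cd40lg) were higher. The part of such cells in the differences above was not tested.

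The genotype differences were set against each other between populations, since passing in one and not in another is no test. Between γδ T cells and DN3a cells none of the 8 differed, where 0.6% of all genes did (0.392% higher, 0.207% lower), and the largest gap was -0.17, for Foxp1; none had an unadjusted p under 0.05. Between ISP and DN3a cells 3 of 8 differed, where 7.01% of all genes did (2.89% higher, 4.12% lower). Between ISP and γδ T cells 3 of 8 differed, where 5.78% of all genes did (2.16% higher, 3.63% lower). In both contrasts they were Foxo1, Klf2 and Sesn3.

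For Foxo1 the difference was higher in ISP cells by 0.87 than in DN3a cells and by 0.75 than in γδ T cells (limma adjusted p = 0.0011 and 0.0036). For Sesn3 the contrasts were -0.78 and -0.86 (limma adjusted p = 0.000578 and 0.00026). For Klf2 they were -1.40 and -1.42 (limma adjusted p = 0.0155 and 0.0163), and the contrast with γδ T cells had an adjusted p of 0.0554 when only the arrays of those populations were fitted and 0.0574 without the third WT γδ array. Btg1, at 0.48 and 0.45, did not pass (limma adjusted p = 0.0803 and 0.116). It passed both contrasts with the replicate number as a block (limma adjusted p = 0.0256 and 0.0379) and without the fourth WT ISP array (0.0157 and 0.0248), and the contrast with DN3a cells with dim genes left out (0.0379). Foxo3 did not pass, at 0.06 and 0.08 with 95% intervals of -0.21 to 0.32 and -0.19 to 0.34. The ISP arrays have other medians than the rest, so a difference in signal scale between the 2 sets of arrays would enter these contrasts.

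The largest differences in these genes lay between populations. WT γδ T cells were higher than WT DN3a cells in 6 of the 8 genes and lower in 1, so 7 were called, where 25.1% of all genes were, 12.7% higher and 12.3% lower. The median difference of the 8 was 0.96, against -0.00 over all genes, and each of the 7 calls held with any 1 array left out.

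S1pr1 stood out among them. It read 10.77, 10.63 and 10.59 in WT γδ T cells, against 5.70, 5.58 and 5.40 in WT DN3a cells, where it lay below the array median. The difference of 5.10 (SE 0.10, 95% interval 4.90 to 5.31, limma adjusted p = 1.16e-17) corresponds to 34.4-fold, which is compressed at the dim end. Klf2 read 8.86, 8.68 and 8.06 in WT γδ T cells, against 6.61, 6.64 and 6.58 in WT DN3a cells, a 3.79-fold difference of 1.92 (SE 0.25, limma adjusted p = 4.44e-06).

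Foxo1 was higher in the same direction, at 9.43, 9.36 and 9.70 in WT γδ T cells, against 7.64, 7.84 and 7.73 in WT DN3a cells, a difference of 1.76 (SE 0.10, limma adjusted p = 7.46e-11). Its probe sets disagreed on the size: the second one averaged 6.22 ± 0.18 in WT γδ and 5.95 ± 0.10 in WT DN3a cells (SD), a difference of 0.27, and the mean of both gave 1.01 (limma adjusted p = 7.26e-08). Sesn3 read 9.79, 9.68 and 9.97 in WT γδ T cells, against 8.43, 8.41 and 8.57 in WT DN3a cells, a 2.54-fold difference of 1.34 (limma adjusted p = 2.29e-10). The groups of Sesn3, and those of Foxo1 on the probe set used, were far apart relative to their spread.

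Btg1 and Foxp1 were moderately higher, by 0.57 and 0.45 (limma adjusted p = 0.000904 and 0.00129). Pik3ip1 was the gene that ran the other way: it read 9.16, 8.84 and 9.14 in WT γδ T cells, against 9.89, 9.86 and 9.82 in WT DN3a cells, and fell by 0.81, or 1.75-fold (limma adjusted p = 4.17e-06). Foxo3 did not pass, at 8.23 ± 0.08 in WT γδ and 8.07 ± 0.12 in WT DN3a cells (SD, limma adjusted p = 0.272).

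The order of the 4 groups of these arrays was the same for Foxo1, Klf2 and Btg1: Raptorfl/fl γδ, WT γδ, Raptorfl/fl DN3a, WT DN3a from high to low. Within each population the neighbours overlapped, apart from Klf2 in DN3a cells, and all γδ arrays lay above all DN3a arrays. For S1pr1 and Foxp1 WT stood above Raptorfl/fl in both populations, and the Raptorfl/fl γδ arrays of Foxp1 overlapped the WT DN3a arrays. Sesn3 had both γδ groups, then WT and Raptorfl/fl DN3a cells, with overlap between genotypes. Pik3ip1 had DN3a WT, DN3a Raptorfl/fl, γδ WT and γδ Raptorfl/fl. For Foxo3 the order was γδ Raptorfl/fl, DN3a Raptorfl/fl, γδ WT, DN3a WT, so both Raptorfl/fl means stood above both WT means, and the last 3 groups overlapped each with the next.

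Most trafficking genes differed between the WT populations as well. Of 21 trafficking genes 14 were higher and 3 lower in WT γδ than in WT DN3a cells, with a list median of 0.51. Itgb7 was higher by 3.45, Itgae, the integrin chain that pairs with it on epithelium-homing T cells, by 2.95, Ccr7, a chemokine receptor of mature thymocytes, by 1.96 and S1pr4 by 0.70. Cd69, which holds S1pr1 inside the cell, was higher too, by 1.79, in the same population in which S1pr1 RNA was high. Itga4 fell by 0.68, Cxcr4, the receptor that retains early thymocytes in the cortex, fell by 0.49, and S1pr3 fell by 0.66.

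Of 26 FOXO targets 13 were higher and 4 lower in WT γδ T cells, with a list median of 0.31. Cited2 was higher by 1.13, Irs2, an adaptor of insulin receptor signalling, by 1.12 and Rbl2 by 0.81. Rag2, a recombinase subunit of DN3a cells, fell by 3.85, and Il7r differed by -0.04 (limma adjusted p = 0.937). On the PI3K route 8 of 20 were higher and 6 lower, with Sgk1 higher by 1.36, Inpp5d higher by 1.16 and Deptor, an inhibitor of mTOR, at -0.99.

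Among the relatives, 4 of 16 Klf genes were higher and 0 lower, led by Klf12 at 1.28 and Klf6 at 0.89. Of 12 sestrin and GATOR genes 4 were higher and 2 lower. Sesn1 by 0.73 and Sesn2 by 0.48 joined Sesn3, and Castor1 and Castor2 were higher by 1.77 and 1.20. Of 12 BTG/TOB and CCR4-NOT genes 2 were higher and 3 lower, with Tob1 higher by 0.98. None of the 5 FOXO and FOXP relatives passed (2 had an unadjusted p under 0.05). Markers of mature αβ T cells, a list that holds S1pr1 and Klf2, were higher in 7 of 9, with mean levels of 9.09 to 9.17 in WT γδ and 6.99 to 7.08 in WT DN3a cells. Of these 9, 8 lay above the array median in WT γδ T cells; Cd40lg, one of the 7, lay below it in both groups. Of 7 natural killer and innate lymphoid cell markers 6 were higher in WT γδ T cells (Gzma, Eomes, Klrd1, Klre1, Tbx21 and Klrb1c, the gene of the NK1.1 antigen that the gate leaves out), with mean levels of 6.57 to 6.63 in WT γδ and 5.65 to 5.74 in WT DN3a cells. Of the 7, Ncr1, Klrb1c, Klrd1 and Klre1 lay below the array median in WT γδ T cells. The part of such cells was not tested.

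**Figure D4:**
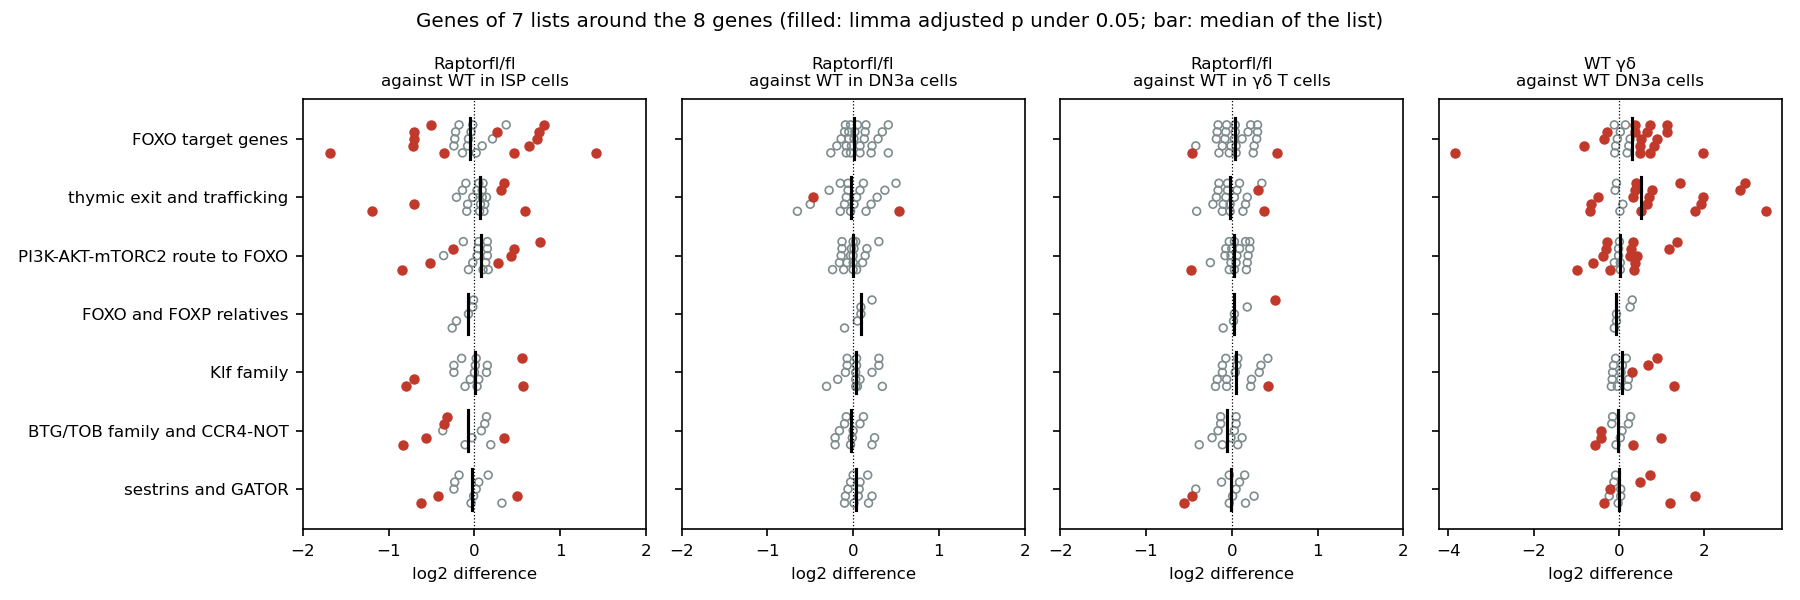
Log2 difference of every measured gene in 7 lists around the 8 genes, 1 row per list and 1 panel per comparison, with filled points where the limma adjusted p was under 0.05 and a bar at the list median; the last panel has a wider axis. Filled points lie on both sides of 0 in ISP cells, are few in DN3a and γδ T cells, and lie mostly above 0 for trafficking genes and FOXO targets between WT γδ and WT DN3a cells, with list medians of 0.51 and 0.31.

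Over the 12 DN3a and γδ arrays, Klf2 ran with S1pr1 (Pearson r = 0.978), Foxo1 (0.964) and Sesn3 (0.961) and opposite to Pik3ip1 (-0.945). These values follow from the gap between the populations, which all 12 points share, and are a description. The genes most like Klf2 over these arrays were Plaur (0.990), Ube2r2 (0.990) and Tmsb10 (0.989), and those most like Foxo1 were Mllt6 (0.997), Sh2d3c (0.996) and Mob3a (0.996). Over the 7 ISP arrays, whose points share the gap between genotypes, some signs were different: Klf2 ran opposite to Foxo1 (-0.809) and Btg1 (-0.786) and with Sesn3 (0.792), and Foxo1 ran opposite to Sesn3 (-0.961). There the genes most like Klf2 were Lgals1 (0.976), Dnah6 (0.974) and Mrps23 (0.973), and those most like Foxo1 were Bcl11b (0.995), Carmil2 (0.994) and Ptpra (0.992).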

How the data were processed

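RNA from sorted thymocytes, 12 ng per array, was labelled with NuGEN WTA Pico v2 and Encore Biotin, per the labels' protocols. The deposited values were log2 expression per probe set, made by the authors with RMA in Partek 6.6, per the submitters' processing notes (no source used here says which arrays shared a normalization). RMA compresses differences of dim probe sets, and few arrays limit the precision: the median within-group SD was 0.0883 to 0.117.

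Of 41345 probe sets, 23521 had 1 symbol, 1814 several and 16010 none in the probe annotation; the last 2 kinds were left out. Symbols of 23328 were read from RefSeq (GRCm38.p6) through their Entrez IDs, whether or not this altered the symbol. The 1082 genes with several probe sets kept the one with the highest mean. Groups came from sample titles. Differences were tested with limma 3.58.1 (R 4.3.3) in a model of 6 group means over 19 arrays. Their p-values were adjusted by Benjamini-Hochberg over 22180 genes (threshold 0.05). The same fit was also run on simulated data, whose results are not given here.

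The 8 genes, the lists and the markers were chosen with earlier results of these data known. List genes were picked by a rule, up to 4 per direction with the smallest p whose groups did not overlap. A few more were to be read whatever their values. Not all genes picked in these ways are given above. Listed genes without a probe set of their own were not analysed here. Alternatives were a replicate block, median centring, quantile normalization over all arrays, the mean of probe sets, an intensity trend, leaving out dim genes, fitting only the populations compared and leaving out each array. Replicate numbers were not taken as pairs in the main fit. Deviations of same-numbered arrays correlated at -0.104 to 0.242. Between the genotypes in DN3a cells these values were 0.242, 0.013 and 0.169, against -0.25 to 0.111 for arrays of different number. Pairing was thus not excluded there, and the replicate block altered some calls.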

Additional observations from a re-analysis of the deposited data

Results flagged for a closer look

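Foxo1, Klf2 and Sesn3 were picked out because their genotype difference differed between populations by a test of that difference. For Foxo1 the Raptorfl/fl minus WT difference was higher by 0.87 in ISP than in DN3a cells and by 0.75 in ISP than in γδ T cells. For Klf2 these contrasts were -1.40 and -1.42, and for Sesn3 -0.78 and -0.86. In each gene the ISP difference was past the threshold and the other differences were between -0.06 and 0.19.

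The fourth WT ISP array stood apart for Foxp1, at 8.26 against 8.10 to 8.12 on the other 3 WT arrays, a gap of 0.842 of the group's range. Groups of 4 were tested for such an array for 8 genes, and chance alone picks out about 1 group in 20.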

How the results depend on the processing

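All 8 genes were recomputed within populations and between WT γδ and WT DN3a cells. The contrasts of genotype differences were recomputed for Foxo1, Foxo3, Klf2, Sesn3 and Btg1 only. Of these 717 differences 677 kept direction and side of the threshold, and 8 lost and 12 gained a call. The other 20 changed sign, all of them small, and the cause was not tested. Fitting only the populations compared estimates the spread from fewer arrays: it called 1313 genes and 2 of the 8 (Foxo1 and Sesn3) in ISP cells, 144 genes in DN3a cells and 345 in γδ T cells. Quantile normalization gave 377 genes in DN3a cells. In γδ T cells the replicate block called 1 of the 8 (S1pr1, adjusted p = 0.0191), quantile normalization 2, an intensity trend 1 and leaving out dim genes 2. Elsewhere the block called Btg1 between ISP and both other populations (0.58 and 0.55) and lost Foxo3 in ISP cells (adjusted p = 0.0561).

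Leaving out 1 array at a time gave 124 to 254 genes in DN3a cells, 333 to 782 genes and 0 to 1 of the 8 in γδ T cells, 76 to 161 genes between the γδ and DN3a effects, 1013 to 1647 between ISP and DN3a and 853 to 1308 between ISP and γδ. Differences that changed sign ranged from -0.15 to 0.05 for Foxp1 in ISP cells, -0.02 to 0.13 for Foxo1 and -0.10 to 0.05 for Pik3ip1 in DN3a cells, and -0.04 to 0.10 for Sesn3 and -0.08 to 0.31 for Klf2 in γδ T cells. Between the γδ and DN3a effects they ranged from -0.09 to 0.04 for Foxo3, -0.22 to 0.18 for Klf2 and -0.04 to 0.17 for Btg1, and between ISP and DN3a from -0.01 to 0.11 for Foxo3. Median centring turned Pik3ip1 in DN3a cells to 0.02 and the Foxo3 contrast of ISP and DN3a to -0.03, and quantile normalization turned that Foxo3 contrast to -0.11 and the Klf2 contrast of γδ and DN3a to -0.08.

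With median centring the share of called genes that were higher was 35.8% in ISP cells (47.2% as reported), 84.0% (72.5%) in DN3a cells, 74.3% (58.1%) in γδ T cells, 21.5% (41.2%) between ISP and DN3a and 20.5% (37.3%) between ISP and γδ, and the median contrast of all genes between ISP and DN3a was -0.106 with centring and -0.017 as reported. The list counts were recomputed 742 times, of which 75 moved by over 1.5 times. Among the 8 genes, dim signal limits S1pr1 in ISP and DN3a cells. Between WT γδ and WT DN3a cells it also limits S1pr3, at 4.60 in WT γδ and 5.26 in WT DN3a cells. The same holds for Klf12, at 4.91 in WT DN3a cells, and Rag2, at 4.20 in WT γδ T cells.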
